A study of Mus musculus with 8 samples.

Results

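The genes described here form the interleukin-1 (IL-1), IL-33 and IL-18 receptor family in mouse spleen stroma: the cytokines *Il33* and *Il18*, the receptor antagonist *Il1rn*, the receptor chains *Il1rl1*, *Il1r1*, *Il1rap* and *Il18rap*, the adaptor *Myd88* and the kinases *Irak1* and *Irak3*. They were chosen by gene symbol from the probes of the array, with earlier results on these arrays known, and a probe counted as detected on an array where its detection p, computed by the scanner software against negative control beads, was below 0.05. Of the 10 genes, 9 had a named probe among 16593 named genes, and *Il1rl1*, which encodes the ligand-binding chain of the IL-33 receptor, was not analysed here. These 9 genes were covered by 17 of 25697 probes, and 12 of the 17 were detected on at least 4 of the 8 arrays, as were 13732 probes of the whole array. Each of the 9 genes kept at least 1 probe, and the probe with the highest mean represented the gene among the 9971 features tested.

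The study asked which transcripts of splenic stroma respond to contact with leukemic B cells. An immortalised stromal line marked with a yellow fluorescent protein (mSSC-YFP), made from E18.5 C57BL6/N embryonic spleen, was used at passages 2 to 6. It was cultured for 40 to 48 h beneath B cells and sorted away from them. Amplified cRNA made from its total RNA was hybridised to an Illumina mouse bead array. In the leukemic group (4 arrays) the B cells came from spleens of highly leukemic adult *Eμ-TCL1* mice, a model of chronic lymphocytic leukemia (CLL) driven by TCL1 expressed from an immunoglobulin enhancer in B cells, and in the control group (4 arrays) they were splenic B cells of age-matched adult control mice. The labels give 20 B cells per stromal cell, while the numbers seeded according to the methods make the ratio higher. Both groups used the same single stromal line, which is not transgenic for TCL1, and no array carries stroma cultured alone. Whether each replicate was its own culture, or came from B cells of a different mouse, is not stated. The limma p-values below therefore measure only how far these samples spread, which may be technical. The rank product q-values compare the ranks of a feature with those of other features and do not measure that spread. Likeness between arrays, on which q also depends, may likewise be technical.

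Cytokines of this family bind a receptor chain of their own, which then joins an accessory chain. The chain encoded by *Il1rap* serves the receptors for IL-1 and for IL-33, and the one encoded by *Il18rap* serves the receptor for IL-18. The joined intracellular domains recruit MyD88, which gathers kinases of the IRAK family and leads through TRAF6 to NF-kB and the MAP kinases. In lymphoid organs IL-33 is known as a nuclear cytokine of fibroblastic stroma, while the IL-18 receptor is best known from T and NK cells.

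Each array detected 13504 to 13938 probes at a median signal of 67.2 to 90.2, and precision is limited by having 4 arrays per group. Leukemic replicate 4 differed from the others, with a correlation across features of 0.955 to 0.970 with the other arrays, against 0.984 to 0.995 among the other 7. Of 13 fibroblast genes on the array, 12 were detected on every array. Of 17 B cell genes, 8 to 11 were detected per leukemic array and 6 or 7 per control array, and the mean log2 level of the 6 that were kept ran from 6.92 to 9.34 on the leukemic arrays and from 6.29 to 6.51 on the control arrays. *Mzb1*, *Cd79b*, *Fcmr* and *Cd79a* of these passed as higher. *Cd74* did not pass (q = 0.266), nor did *Ebf1*, whose mean was lower in the leukemic group, 5.90 against 6.06. *Ms4a1*, *Pax5*, *Spib* and *Cd5* were detected on 0 arrays. The highest of these B cell levels, 9.34, was that of leukemic replicate 4, and the other leukemic arrays reached 7.34. Of 12 pan-leukocyte genes, 7 were kept, with a mean level of 7.19 to 9.0 on the leukemic arrays and 6.84 to 7.13 on the control arrays, and *Cd52* and *Laptm5* passed as higher while *Ptprc* was detected on 0 arrays. Of 4 kept myeloid genes *Lyz1* and *Lyz2* passed as higher, with *Itgam* and *Adgre1* detected on 0 arrays, and of 3 kept mast cell and basophil genes and 6 kept endothelial genes 0 passed. Without leukemic replicate 4 *Cd79a*, *Laptm5*, *Lyz1* and *Lyz2* no longer passed, and each of these 4 genes also lost its call without other single arrays of both groups. With the authors' normalized values *Cd79b* (q = 0.159), *Fcmr* (q = 0.0933), *Cd52* (q = 0.184), *Cd79a*, *Laptm5* and *Lyz2* did not pass. Each member's difference below is also given without leukemic replicate 4.

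Levels are log2 values after background correction and quantile normalization, and differences are leukemic minus control on that log2 scale with the standard error (SE). The rank product is the test that the study's methods name, but it was run here in a version written for this purpose, on differently normalized values. A feature passed at a q, the estimated share of false positives, below 0.05. This called 30 of 9971 features higher in the leukemic group (0.301%) and 2 lower (0.0201%). Of the 9 members, 1 was among the lower and 0 among the higher. The second test, limma with Benjamini-Hochberg adjustment, called 0 features (0%), with a smallest adjusted p of 0.639, although 389 features were higher and 367 lower at an unadjusted p below 0.05. Across all features the median difference was 0.0028 and 50.6% had the higher mean in the leukemic group. All leukemic arrays lay above all control arrays for 220 features (2.21%) and below them for 230 (2.31%), and among the 9 members this held for *Il18rap* alone, which lay below.

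*Il18rap*, which encodes the accessory chain of the IL-18 receptor, was the member that passed as lower. Its signals were 100, 132, 121 and 76.1 on leukemic arrays 1 to 4, against 160, 193, 171 and 136 on control arrays 1 to 4. On the log2 scale its levels were 6.23, 6.36, 6.41 and 4.98 on the leukemic arrays, against 7.38, 7.31, 7.0 and 6.70 on the control arrays. Every leukemic array was below every control array, and leukemic replicate 4 lay far below the rest, with a detection p of 0.0789 where the other 7 arrays were at 0.00125 or less. The mean level was 6.00 ± 0.68 in the leukemic group and 7.10 ± 0.31 in the control group (SD, n = 4 each), a difference of -1.10 ± 0.31, or 0.466-fold. It ranked 1 of 9971 features for a lower leukemic level in the rank product, with q = 0.03. The only other feature past that threshold was *Atad2*, a chromatin-associated ATPase named here after its values were seen, with -0.96 ± 0.26 and q = 0.035. In limma the unadjusted p of *Il18rap* was 0.0045 and its adjusted p 0.639.

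The call of *Il18rap* sat at the edge of the threshold, while its direction did not turn. Leaving out any 1 of the 8 arrays ended the call, with q between 0.05 and 0.30 and differences between -1.24 and -0.76, the smallest of them without leukemic replicate 4. Without background correction the difference was -0.77 (q = 0.165), and in the authors' normalized values it was -0.26 (q = 0.528), where the levels ran from 7.67 to 7.89 on the leukemic arrays and from 7.96 to 8.17 on the control arrays and still did not overlap. The level was lower in the leukemic group in all 17 other settings tried, and 5 of them kept the call. Most of these settings could not have turned the direction. Those that change only the filter, the features or the test reuse the same difference, -1.10. Leaving out 1 array cannot turn it either, because the groups did not overlap. Only a change of background correction, scaling or normalized values could have turned it.

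**Figure D1:**
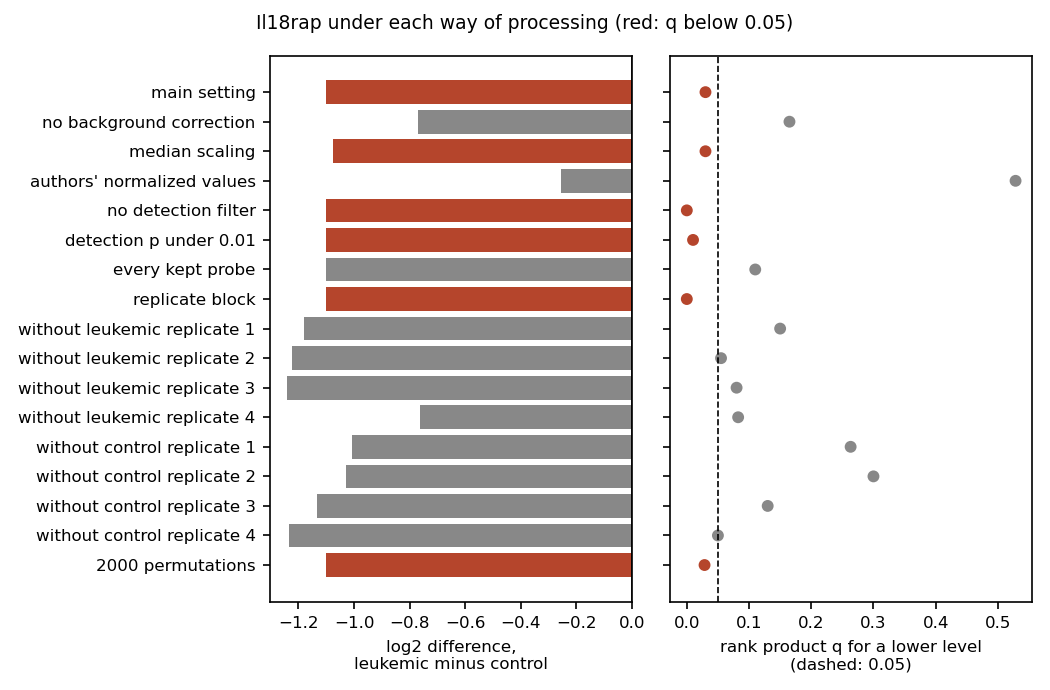
*Il18rap* under each way of processing. The left panel gives the log2 difference, leukemic minus control, as bars from 0, and the right panel the rank product q for a lower level with the 0.05 threshold dashed; red marks q below 0.05. All bars point to a lower leukemic level, from -1.24 without leukemic replicate 3 to -0.26 with the authors' normalized values, and every setting that leaves out 1 array has a q of 0.05 or more.

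The ligand-binding partner of this chain, *Il18r1*, was detected on 0 arrays, with signals of 43.5 to 51.0 in the leukemic group and 37.1 to 48.6 in the control group and a lowest detection p of 0.503. Of 15 T, NK and innate lymphoid genes on the array, *Cd3d*, *Cd3e*, *Cd8a*, *Nkg7*, *Ncr1*, *Gzma*, *Gzmb* and *Il7r* were detected on 0 arrays. Of the 15 genes, 4 were kept. *Ccl5* (-0.22 ± 0.41), *Gata3* (-0.17 ± 0.18) and *Prf1* (0.31 ± 0.30) were detected on all 8 arrays, and *Cd247* on 4. The mean level of these 4 genes was 7.43 to 7.76 on the leukemic arrays and 7.41 to 7.68 on the control arrays. In either direction, 0 passed. The B cell and pan-leukocyte levels moved opposite to *Il18rap*, with the highest of both and the lowest *Il18rap* on leukemic replicate 4, and their part in the difference was not tested. In bulk RNA such as this, fewer cells of a type and less RNA per cell cannot be told apart.

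The bases before the start site of *Il18rap* and *Myd88* are shown because they are the member that passed as lower and the adaptor that the signalling receptors of the family share. They come from RefSeq promoters of GRCm38.p6, in which all 10 genes had an entry, with 17 start sites in all. The 250 bases before each start were searched on both strands for NF-kB (GGANTTTCC), IRF (GAAANNGAA), STAT (TTCNNNGAA) and AP-1 (TGANTCA) letters, where N is any base. Capitals mark the match, each line ends at the base before the start, and positions below count back from the start, with -1 the base before it.
*Il18rap*, chr1:40515303-40515361, plus strand: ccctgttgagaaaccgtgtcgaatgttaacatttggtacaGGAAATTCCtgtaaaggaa
*Myd88*, chr9:119340019-119340104, minus strand: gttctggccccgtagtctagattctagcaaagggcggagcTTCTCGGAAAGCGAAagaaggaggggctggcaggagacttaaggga

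In *Il18rap* the NF-kB letters, GGAAATTCC, lie at -19 to -11, and 1.07% of 32851 promoters searched the same way hold such a match. In *Myd88* the STAT letters, TTCTCGGAA, lie at -46 to -38 and overlap the IRF letters, GAAAGCGAA, at -40 to -32. A STAT match occurs in 7.02% and an IRF match in 7.13% of promoters. Among the other members, *Irak3* has an IRF match, TTCATTTTC, at -102 to -94 of its second listed start, and *Il1rn* an AP-1 match, TGAGTCA, at -141 to -135 of its first listed start, and AP-1 letters occur in 6.75% of promoters. The remaining 6 members have 0 matches to these letters in these windows. A match describes the sequence only, and binding was not measured in these cells.

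The cytokines had a higher mean with leukemic B cells and passed no threshold. *Il33* encodes the alarmin that signals through the chain encoded by *Il1rl1*, and its probe was detected on all 8 arrays. Its levels were 6.95, 6.8, 6.95 and 7.73 on the leukemic arrays, against 6.56, 7.11, 6.35 and 6.51 on the control arrays. Leukemic replicate 4 was the highest, but control replicate 2 lay above the other 3 leukemic arrays, so that the groups overlapped. The difference was 0.48 ± 0.23 (rank product q = 0.444, limma adjusted p = 0.639), and 0.27 without leukemic replicate 4.

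*Il18* encodes the ligand of the IL-18 receptor, which is made as a precursor and cut by caspase-1. Its signals were 277, 361, 330 and 735 on the leukemic arrays, against 237, 242, 326 and 388 on the control arrays. Its levels were 8.17, 8.11, 8.19 and 9.15 on the leukemic arrays, against 8.05, 7.71, 8.10 and 8.47 on the control arrays. Leukemic replicate 4 alone was above every control array, and the other leukemic arrays lay close together inside the control range. The difference was 0.32 ± 0.25 (q = 0.886, limma adjusted p = 0.693) and shrank to 0.074 without leukemic replicate 4.

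*Il1rn*, the natural antagonist that occupies the IL-1 receptor without recruiting the accessory chain, was near the limit of detection. Its kept probe was detected on 2 leukemic arrays and 4 control arrays, and its other 2 probes on 0 arrays. The levels of the kept probe were 5.10, 5.15, 5.34 and 4.56 on the leukemic arrays, against 5.59, 5.26, 5.47 and 5.12 on the control arrays. The leukemic values tended lower and leukemic replicate 4 was the lowest, but leukemic replicate 3 exceeded 2 control arrays. The difference was -0.33 ± 0.20 (q = 0.815, limma adjusted p = 0.656), and -0.17 without leukemic replicate 4. Detection p-values of this probe lay on both sides of the limit, at 0.0464 on leukemic replicate 2 and 0.0564 on leukemic replicate 1.

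**Figure D2:**
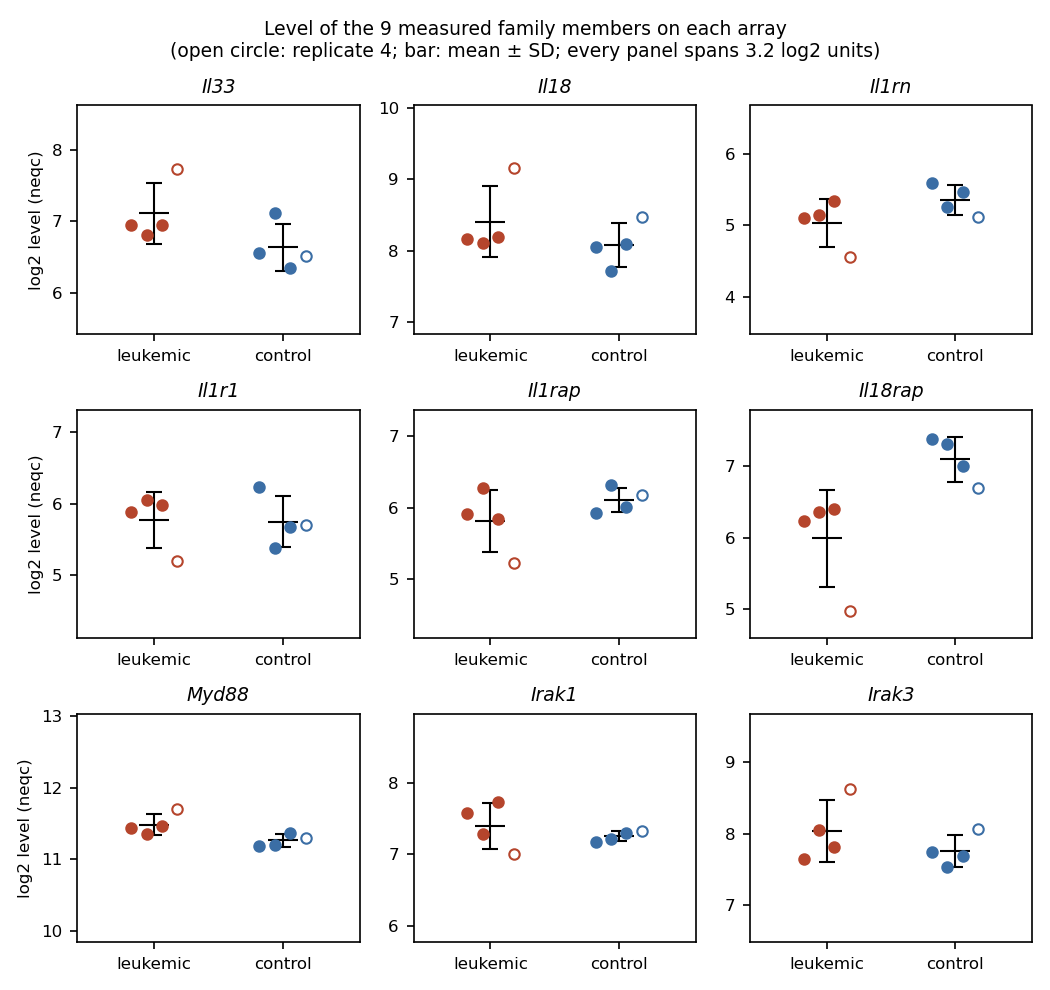
Log2 level of the 9 measured members on each array, 1 panel per gene, leukemic arrays in red on the left and control arrays in blue on the right; bars are the mean ± SD of 4 arrays, open circles are replicate 4, and every panel spans the same number of log2 units. *Il18rap* is the only panel without overlap, and the open leukemic circle is the extreme value of its group in every panel.

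Among the other receptor chains, neither *Il1r1* nor *Il1rap* passed. *Il1r1*, the signalling receptor for IL-1, had 1 probe detected on all 8 arrays and another detected on 0. Its levels were 5.89, 6.05, 5.98 and 5.20 on the leukemic arrays, against 6.24, 5.38, 5.68 and 5.71 on the control arrays. Control replicate 1 was the highest, leukemic replicate 4 the lowest, and the arrays between them were mixed. The difference was 0.03 ± 0.24 (limma adjusted p = 0.977), 0.22 without leukemic replicate 4, and its sign turned when any of 4 other arrays was left out.

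*Il1rap*, the accessory chain shared by the IL-1 and IL-33 receptors, had 6 probes, of which 4 were kept. The tested probe gave 5.91, 6.27, 5.84 and 5.23 on the leukemic arrays, against 5.93, 6.31, 6.01 and 6.17 on the control arrays. The groups overlapped, with leukemic replicate 4 the lowest, and the difference was -0.29 ± 0.21 (q = 0.882, limma adjusted p = 0.687), or -0.097 without that array. The other 3 kept probes differed by -0.52 ± 0.19, -0.11 ± 0.20 and -0.35 ± 0.25 with overlapping groups, and by -0.46, 0.01 and -0.10 without leukemic replicate 4. Over all kept probes as separate features, the first of these had q = 0.399 and a limma adjusted p of 0.600. Of the 2 probes that were not kept, 1 was detected on 2 arrays and 1 on 0, the second of them annotated to another transcript record of the gene.

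**Figure D3:**
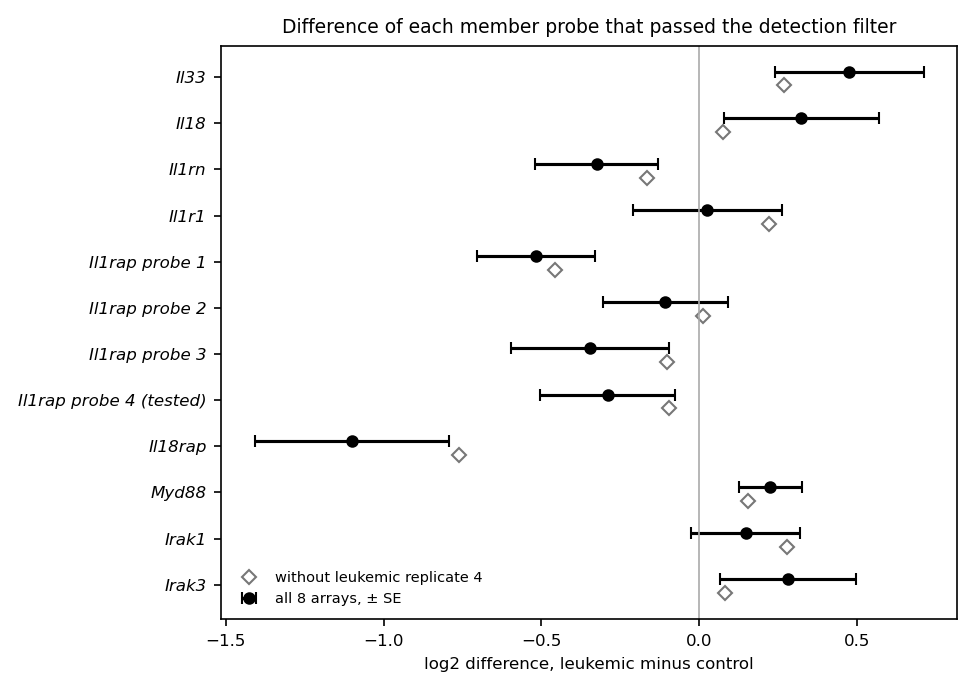
Log2 difference, leukemic minus control, of each of the 12 member probes that passed the detection filter; filled points are all 8 arrays with bars of ± 1 SE, and open diamonds leave out leukemic replicate 4. *Il18rap* lies at -1.10, the other probes lie between -0.52 and 0.48, and without leukemic replicate 4 *Il18rap* lies at -0.76.

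The adaptor and both kinases had a higher mean in the leukemic group and passed no threshold. *Myd88*, which links the receptors of this family and most toll-like receptors to the IRAK kinases, had signals of 2370, 3160, 3000 and 4000 on the leukemic arrays, against 1810, 2210, 2770 and 2540 on the control arrays. Its levels were 11.44, 11.35, 11.46 and 11.70 on the leukemic arrays, against 11.19, 11.20, 11.37 and 11.30 on the control arrays. Only control replicate 3 reached into the leukemic range, above leukemic replicate 2. The difference was 0.23 ± 0.10 (q = 0.992, limma unadjusted p = 0.0463 and adjusted p = 0.639), and 0.15 without leukemic replicate 4.

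*Irak1*, a kinase that is recruited by MyD88 and passes the signal on to TRAF6, had levels of 7.58, 7.28, 7.73 and 7.01 on the leukemic arrays, against 7.17, 7.22, 7.30 and 7.33 on the control arrays. Leukemic replicates 1 and 3 were above every control array and leukemic replicate 4 was below them all. The difference was 0.15 ± 0.17 (limma adjusted p = 0.790), and ran between 0.037 without leukemic replicate 3 and 0.28 without leukemic replicate 4. *Irak3*, which encodes an inhibitory member known for damping the pathway, had levels of 7.65, 8.05, 7.81 and 8.63 on the leukemic arrays, against 7.74, 7.53, 7.69 and 8.07 on the control arrays. Leukemic replicate 4 was the highest and the groups overlapped, with a difference of 0.28 ± 0.22 (limma adjusted p = 0.695) that was 0.082 without that array.

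Read by role, the cytokines and antagonist had a median difference of 0.32, the receptor chains of -0.29 and the adaptor and kinases of 0.23, each over 3 genes, against 0.0028 over all features. Without leukemic replicate 4 these medians were 0.07, -0.10 and 0.15. That array was the highest or the lowest of the leukemic group for all 9 members.

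Across the 8 arrays, which share 1 cell line, *Il18rap* and *Myd88* ran in opposite directions (Pearson r = -0.95, and -0.87 without leukemic replicate 4), and *Il18* and *Irak3* in the same direction (0.93 and 0.75). Between *Il33* and *Il18* r was 0.56 with leukemic replicate 4 and -0.49 without it, and between *Myd88* and *Irak1* 0 and 0.88. These are only some of the member pairs, and r across both groups also takes in any difference between the groups. The features whose levels most resembled those of *Il18rap* were *Ak4* (r = 0.989), a mitochondrial adenylate kinase, *Ncbp1* (0.982), a subunit of the nuclear cap-binding complex, *Slc12a3* (0.975), a sodium and chloride cotransporter, *Psmd11* (0.973), a proteasome subunit, and *Prmt5* (0.973), an arginine methyltransferase. Without leukemic replicate 4 these values were 0.972, 0.945, 0.937, 0.964 and 0.912 in the same order. They are descriptions over 8 arrays from 2 groups, and the gene was singled out for this after its values were seen.

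The remaining ligands and receptors of the family were mostly not detected in this stroma. Of 11 on the array, 4 were kept, 0 passed, and 1 had a higher and 3 a lower mean in the leukemic group, with a median of -0.16. That median was -0.068 without leukemic replicate 4, -0.03 with the authors' values and 0.028 with no detection filter, so its sign depended on the filter. *Il1a* and *Il1b*, the agonists of the IL-1 receptor, and *Il1r2*, its decoy, were detected on 0 arrays. *Il1b* had signals of 54.7 to 68.5 in the leukemic group and 44.6 to 51.6 in the control group, with a lowest detection p of 0.147. The inhibitory receptor *Sigirr* had levels of 6.34, 6.00, 6.04 and 5.13 on the leukemic arrays, against 6.10, 6.31, 6.18 and 5.96 on the control arrays, and its difference of -0.26 ± 0.24 was -0.01 without leukemic replicate 4. *Il18bp*, the soluble trap for IL-18, differed by -0.19 ± 0.17, and *Il1rl2*, the receptor for IL-36, by -0.13 ± 0.17. On chromosome 1 the order of genes in the GRCm38.p6 annotation is *Il1r2*, *Il1r1*, *Il1rl2*, *Il1rl1*, *Il18r1* and *Il18rap*. The member that passed as lower thus ends a row of receptor genes, of which *Il1r1* and *Il1rl2* were also tested and did not pass.

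Behind MyD88, 26 of 27 signalling genes on the array were kept and 0 passed, 15 with a higher and 11 with a lower mean, and their median of 0.006 was close to that of all features. *Map2k6*, a kinase that activates p38, had levels of 7.10, 7.06, 6.57 and 6.17 on the leukemic arrays, against 7.27, 7.35, 7.15 and 6.96 on the control arrays, a difference of -0.46 ± 0.22 (q = 0.540) that was -0.27 without leukemic replicate 4. Of the subunits of the linear ubiquitin ligase, *Sharpin* and *Rnf31* had no overlap between groups, while *Rbck1*, named after its values were seen, overlapped with a difference of 0.008 ± 0.12. *Sharpin* had 8.40, 8.39, 8.44 and 8.79 on the leukemic arrays, against 8.04, 8.08, 8.07 and 8.37 on the control arrays (0.36 ± 0.14, limma adjusted p = 0.639). *Rnf31*, its catalytic subunit, had 8.30, 8.35, 8.27 and 8.38 on the leukemic arrays, against 8.07, 7.88, 7.88 and 8.20 on the control arrays (0.31 ± 0.13, limma adjusted p = 0.639). Leukemic arrays were above all controls for *Sharpin* and *Rnf31* among the 26 genes and below them for 1, *Tab2*, named after its values were seen, at -0.12 ± 0.09, where 2.21% of all features lay above and 2.31% below.

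Of 11 genes for the processing of these cytokines, 4 were kept and 0 passed, with a median of 0.153, or 0.051 without leukemic replicate 1 and 0.077 with the authors' values. *Casp4*, the mouse caspase-11 of the non-canonical inflammasome, had levels of 7.47, 7.59, 7.86 and 9.40 on the leukemic arrays, against 7.74, 7.49, 7.15 and 7.47 on the control arrays. Leukemic replicate 4 stood alone, and the difference of 0.62 ± 0.37 was 0.18 without it. *Casp8* differed by -0.20 ± 0.11 and the pore-forming *Gsdmd* by 0.17 ± 0.11. The inflammasome genes *Nlrp3*, *Aim2* and *Pycard* were detected on 0 arrays, and *Casp1*, whose product cuts the IL-18 precursor, on 3.

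Of 6 kept genes for other receptors that use MyD88, 0 passed and 5 had a higher mean, with a median of 0.176, or 0.031 without leukemic replicate 4. *Ly96*, the MD-2 subunit that binds lipopolysaccharide beside toll-like receptor 4, had levels of 10.52, 10.48, 10.46 and 10.66 on the leukemic arrays, against 10.28, 10.17, 10.14 and 10.38 on the control arrays. The groups did not overlap, and the difference was 0.29 ± 0.10 (limma adjusted p = 0.639). It was 1 of the 6 kept genes with all leukemic arrays above all control arrays, where 2.21% of all features lay so. The adaptor *Tirap* differed by 0.24 ± 0.14 and the co-receptor *Cd14* by 0.19 ± 0.15.

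Of 31 genes that IL-1 and NF-kB induce in fibroblasts, 25 were kept and 1 passed as higher. The mean was higher for 22 and lower for 3, with a median of 0.383, or 0.104 without leukemic replicate 4. The list was drawn up with earlier results of these arrays known, so the direction is no independent evidence. *Saa3*, an acute phase serum amyloid, passed, with levels of 4.92, 6.68, 10.45 and 11.54 on the leukemic arrays, against 5.92, 8.12, 6.28 and 6.04 on the control arrays. Leukemic replicates 3 and 4 were high while leukemic replicate 1 was the lowest of all 8, and the difference was 1.81 ± 1.24 (q = 0.0029, limma adjusted p = 0.668), or 0.76 without leukemic replicate 4. The call was lost without leukemic replicate 3 (q = 0.140) and without leukemic replicate 4 (q = 0.157). *Bcl3*, an atypical IkB protein named after its values were seen, was the gene of the list with no overlap, at 8.66, 8.44, 8.86 and 8.98 on the leukemic arrays, against 7.97, 8.30, 8.11 and 8.41 on the control arrays (0.54 ± 0.16, q = 0.323). That is 1 of the 25 kept genes, where 2.21% of all features had all leukemic arrays above all control arrays.

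*Il6*, an inflammatory cytokine whose probe was detected on 5 arrays, had levels of 5.05, 5.13, 7.83 and 9.15 on the leukemic arrays, against 4.84, 4.86, 7.54 and 5.32 on the control arrays, with a difference of 1.15 ± 0.91 (q = 0.0579) that was 0.36 without leukemic replicate 4. Its high values were on leukemic replicates 3 and 4 and on control replicate 3, and the same arrays held the highest values of *Cxcl1*, 10.46, 10.25, 13.98 and 13.67 on the leukemic arrays, against 10.45, 10.34, 14.08 and 10.51 on the control arrays. *Cxcl1*, a neutrophil chemokine, was named after its values were seen. The collagenase *Mmp13* had levels of 6.94, 6.53, 7.01 and 10.24 on the leukemic arrays, against 7.08, 6.15, 6.75 and 5.85 on the control arrays, with a difference of 1.23 ± 0.69 (q = 0.0602) that was 0.37 without leukemic replicate 4. Control replicate 3, high for *Il6* and *Cxcl1*, had the lowest *Il33* level of all 8 arrays, 6.35. Leukemic replicate 4, also high for both, had the highest *Il33* level, 7.73, and leukemic replicate 3 had 6.95. The B cell and pan-leukocyte levels were highest on leukemic replicate 4, and their part in these differences was not tested.

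**Figure D4:**
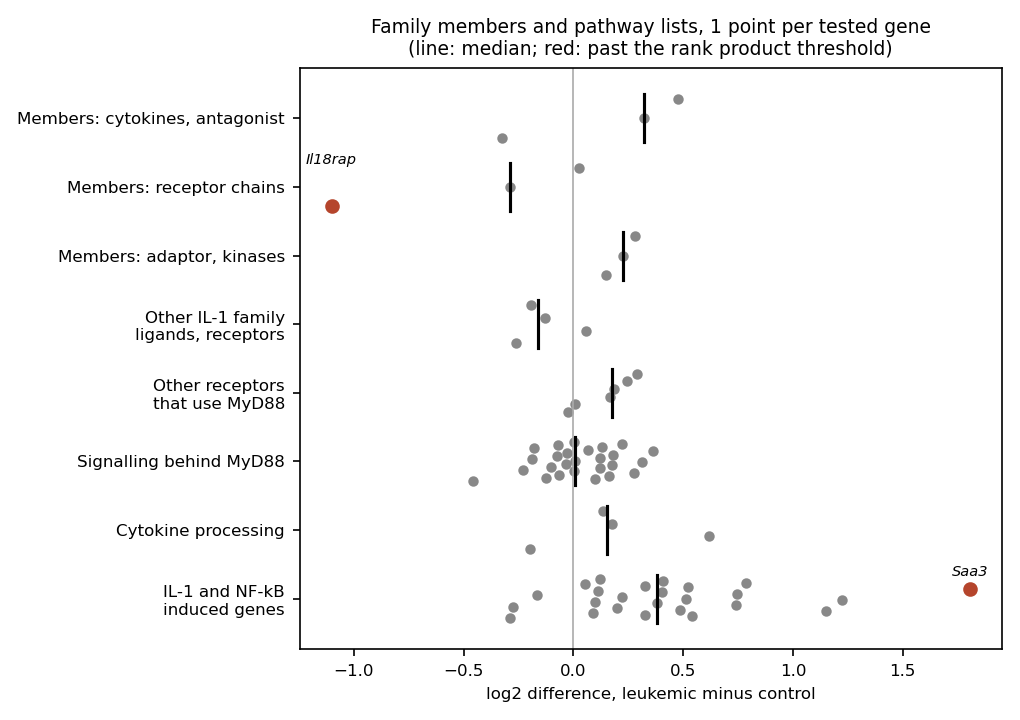
Log2 difference, leukemic minus control, of the 9 tested members by role and of the pathway lists, 1 point per tested gene with its list's median as a line; red points passed the rank product threshold. *Il18rap* is at -1.10, *Saa3* at 1.81, and the medians run from -0.29 for the receptor chains to 0.383 for IL-1 and NF-kB induced genes.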

How the data were processed

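The authors deposited, per the file headers, an average bead intensity per probe and array without normalization, a detection p-value beside each, and a second table normalized with lumi on a log2-like scale whose transformation and background settings are not given in the sources used here. All 8 arrays were on 1 chip. Here the deposited intensities were background-corrected and normalized with neqc of limma 3.58.1 in R 4.3.3 (offset 16), which takes log2 values. Probes detected (p below 0.05) on at least 4 arrays were kept, 1 per gene symbol by the highest mean. Symbols came from the platform annotation, updated through RefSeq, and 1719 probes were unnamed here.

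Leukemic and control arrays were compared by an unpaired rank product written for this purpose. It took 16 array pairs and 100 permutations within arrays (q below 0.05). It was tested on simulated data with independent noise of equal size for all features and no deviant array. That simulation cannot show how q behaves on these arrays. The second test was limma (trended variance, 2-sided, Benjamini-Hochberg adjustment), which also gave differences and SEs. Members and lists were chosen with earlier results of these data known. All members are named. From each pathway list, and from the T, NK and innate lymphoid markers, the genes past the threshold and otherwise the 3 with the largest absolute difference are named. From the other marker lists the genes past the threshold are named, with some that did not pass or were not detected. The largest differences of marker lists in which 0 passed are otherwise not shown. A likeness search set for *Il1rl1* was run on *Il18rap* instead. Background correction, scaling, filters, probe choice, a replicate block and single arrays were varied.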

Additional observations from a re-analysis of the deposited data

Results flagged for a closer look

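In 3 of the 18 groups of 4 arrays that were tested, 9 members in each group, 1 array lay far from the others by Dixon's ratio of its gap to the whole range, and in each it was leukemic replicate 4. For *Il33* it was the highest at 7.73 with the next at 6.95 (ratio 0.84), and for *Il18* the highest at 9.15 with the next at 8.19 (0.928). For *Il18rap* it was the lowest at 4.98 with the next at 6.23 (0.871). Chance alone marks about 1 in 20 groups, but all members were measured on the same arrays, so these 3 marks are not independent.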

How the results depend on the processing

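*Il18rap* kept its lower level in every alternative run, though most of these runs could not have turned its direction. Its call was lost without background correction (-0.77), with the authors' normalized values (-0.26) and with every kept probe as a feature (-1.10, q = 0.11). The call was also lost with limma (-1.10, adjusted p = 0.639) and without any single array (-1.24 to -0.76). Chosen after seeing the data, 2000 permutations gave q = 0.0285, and 6 other random seeds gave q from 0 to 0.05, with 2 of them at 0.05. Its call was kept with median scaling, with no filter, with a detection p under 0.01 and with the replicate block. The filter for detection on all 8 arrays removed *Il18rap* and *Il1rn*, and the filter at a detection p under 0.01 removed *Il1rn*, so no value exists for them there. The sign of *Il1r1* turned to -0.01, -0.06, -0.04 and -0.10 when leukemic replicate 1, 2 or 3 or control replicate 2 was left out, with a range of -0.10 to 0.22 over all arrays left out, and the other members kept their direction. With the authors' values several were much smaller, at 0.14 for *Il33*, 0.18 for *Il18*, 0.14 for *Irak3*, 0.060 for *Irak1*, -0.045 for *Il1rn* and -0.044 for *Il1rap*.

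Over all features, 30 passed as higher and 2 as lower. The counts were 23 and 0 without background correction, 10 and 5 with the authors' values, 53 and 7 with no filter, 51 and 0 with every kept probe, 0 and 0 with limma, and 6 to 41 and 0 to 14 without single arrays. Same-numbered arrays had deviation correlations of 0.251, 0.301, 0.194 and 0.031, and 6 of 8 arrays correlated best with their own number. The labels do not tie the numbers together, but same-numbered arrays also carried neighbouring position letters on the chip. Whether position plays a part in these correlations was not tested. With the replicate block 37 features were higher and 18 lower, and *Il18rap* kept -1.10 with q = 0. Without leukemic replicate 4, 6 features passed as higher and 0 as lower. Signals of *Il1rn*, *Il1r1* and *Il1rap* were close to background, which limits what their probes can show. The leukemic signals of *Il18rap* ran from 76.1 to 132, near the 84 to 113 of the tested *Il1r1* probe. The size of the *Il18rap* difference is limited in the same way.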
